A study of Mus musculus with 6 samples.

Results

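The Sox genes studied here are 10 transcription factor genes, Sox1, Sox2, Sox3, Sox21, Sox5, Sox6, Sox9, Sox4, Sox11 and Sox12, picked by gene symbol from a table of 54532 genes. RNA sequencing measured them in neurospheres, which are free-floating clusters of proliferating neural progenitors. Hippocampal cells of C57BL/6 pups at postnatal day 0 were cultured with FGF-2 and EGF at 20 ng/ml each, those of 1 mouse in 2 wells, and the spheres were collected on day 7. The CTRL group holds 3 libraries of genotype hGFAPCre+, Fgf13+/y, and the FGF13cko group holds 3 libraries of genotype hGFAPCre+, Fgf13 flox/y. Both groups carry the Cre transgene, driven by the human GFAP promoter, so only cells that use that promoter and their descendants are expected to lose Fgf13. The comparison asks how this deletion relates to gene expression in the spheres. Whether the libraries of a group come from different mice is not given, so p-values measure the spread between these libraries.

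Sox proteins share a DNA-binding HMG box and are sorted into classes by its sequence. SoxB1 factors (Sox1, Sox2, Sox3) keep neural progenitors undifferentiated and can stand in for one another, whereas the SoxB2 factor Sox21 opposes them and favours neuron formation. Sox9, of class SoxE, supports stem cell and glial fates. The SoxD factors Sox5 and Sox6 lack an activation domain and adjust the work of other Sox proteins. SoxC factors (Sox4, Sox11, Sox12) act in late progenitors and young neurons.

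Each library had between 22191718 and 24531400 reads in genes, and all 10 genes were well above the low-value filter, with at least 652 normalized counts in every library. Fgf13, the targeted gene, had 480.1, 651 and 276 normalized counts in CTRL 1, 2 and 3 and 201, 239 and 332 in FGF13cko 1, 2 and 3. The groups overlapped through CTRL 3, and Fgf13 did not pass the test (log2 change -0.81, SE 0.33, limma adjusted p = 0.134), so whole-gene counts check the genotype labels only in part. Without both replicate 3 libraries it did pass (log2 change -1.35, limma adjusted p = 0.000352). Both replicate 3 libraries stood apart from the others of their groups, with 4.14% and 4.05% of reads from mitochondrially encoded genes against 1.46% to 2.36% in the other four. The labelled cell type was checked on 8 progenitor markers, and their summed level was 124046 to 137881 normalized counts in CTRL and 184783 to 191598 in FGF13cko. Vim, Fabp7, Slc1a3 and Nes set most of that sum and did not pass the test, while Pax6, Hes5 and Prom1 were called lower.

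Sox2, Sox4 and Sox5 fell in FGF13cko, to 58.1%, 48.9% and 69.6% of their CTRL means. The other 7 genes did not pass the test, and their means lay between 68.9% (Sox6) and 124% (Sox3) of CTRL. Thus 3 of 10 members were called lower by limma, where 7.08% of the 16852 genes tested were. No member was called higher by limma, edgeR or DESeq2, and 0 were higher at an unadjusted p under 0.05 in limma, whereas 7.55%, 7.06% and 9.02% of all genes were called higher by the 3 tools. Both edgeR and DESeq2 called 4 members lower (Sox2, Sox4, Sox5 and Sox6), against 7.86% and 8.18% of all genes tested. The authors' deposited table has the same 4 members past 0.05, where 7.91% of its genes were lower and 8.78% higher. With the replicate number as a block limma called those 4 as well, against 13.9% of genes lower and 16.2% higher. The values of 4 members, Sox2, Sox4, Sox5 and Sox6, lay below all CTRL values, against 18.7% of all genes tested, and no member lay above all CTRL values, against 20.6%. The median log2 change was -0.32 over the members and 0.02 over all genes tested. In bulk RNA, fewer cells that express a gene and less RNA per cell cannot be told apart.

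**Figure D1:**
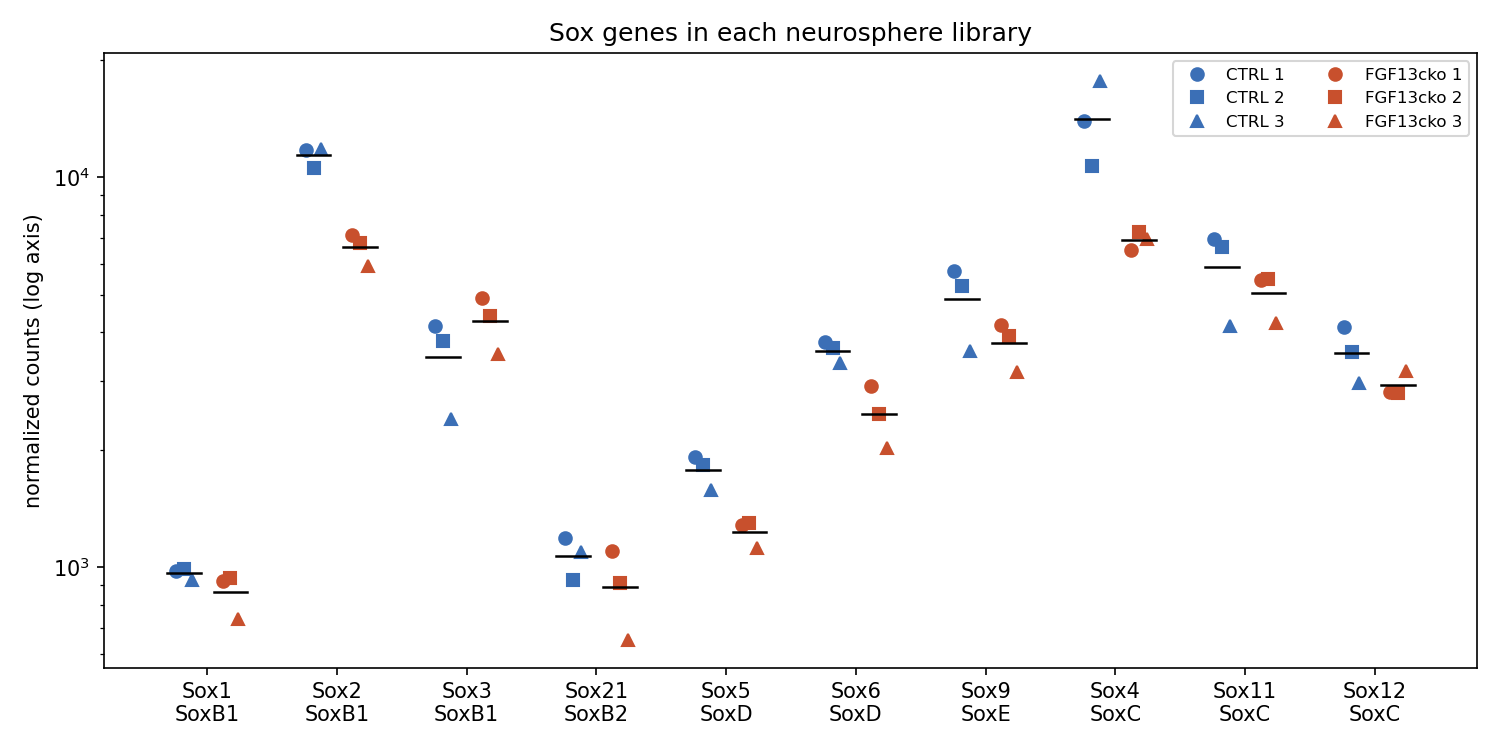
Normalized counts (log axis) of the 10 Sox genes in each library, with CTRL in blue and FGF13cko in orange, replicates 1, 2 and 3 as circles, squares and triangles, and bars at the group means. The FGF13cko points of Sox2, Sox4, Sox5 and Sox6 lie below all CTRL points, and those of the other 6 genes overlap with CTRL.

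Levels can be set side by side between genes only per length, here as normalized counts per kb of annotated exon. On that scale Sox2 led in CTRL at 5529 ± 337 (SD, n = 3), followed by Sox4 at 2937 ± 730.2 and Sox3 at 1676 ± 451. Sox9 (1178 ± 275), Sox12 (798 ± 131) and Sox11 (710.1 ± 184) came next, and each neighbour from Sox3 down to Sox11 overlapped with the next. Sox21 (281 ± 34.9) overlapped with Sox6 (242 ± 15.1), and Sox1 (199.9 ± 7.12) and Sox5 (123 ± 12.2) closed the order. In FGF13cko the order per kb was Sox2 at 3212 ± 299.8, then Sox3 at 2075 ± 341, then Sox4 at 1437 ± 78.4. Sox3 and Sox4 had changed places, and their ranges were apart in both groups. The exon length covers every annotated isoform, so genes with many isoforms, Sox5 and Sox6 above all with 25 exon blocks each, come out low on this scale.

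Sox2 (ENSMUSG00000074637, chromosome 3, 34650405 to 34652461, plus strand, GRCm38) is a single-exon gene and the SoxB1 factor most closely tied to neural stem cell renewal. Its normalized counts were 11753, 10573 and 11791 in CTRL 1, 2 and 3, and 7122, 6774 and 5923 in FGF13cko 1, 2 and 3. The lowest CTRL library stood well above the highest FGF13cko library. The log2 change was -0.79 (SE 0.15, 95% interval -1.13 to -0.44, limma adjusted p = 0.0152). Leaving out CTRL 1, FGF13cko 2 or FGF13cko 3 ended the call, with limma adjusted p = 0.0638 to 0.0772, while the log2 change stayed between -0.84 and -0.71 with any 1 library left out. The gene lies inside Sox2ot, a noncoding gene on the same strand, but no annotated exon bases are shared. Sox2ot was at 479, 386 and 638 normalized counts in CTRL and 426, 419.7 and 511 in FGF13cko, so its groups overlapped (limma adjusted p = 0.721).

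Sox3 (chromosome X, 60891366 to 60893430, minus strand), the SoxB1 factor also known from pituitary and hypothalamic development, had 4168, 3809 and 2405 normalized counts in CTRL 1, 2 and 3. It had 4917, 4415 and 3525 in FGF13cko 1, 2 and 3. CTRL 3 was the lowest library, and FGF13cko 3 lay between the CTRL values. The difference was 0.33 on the log2 scale (95% interval -0.21 to 0.88, limma adjusted p = 0.364). Sox1 (chromosome 8, 12395295 to 12400126, plus strand), a marker of committed neural progenitors, was at 981, 990.2 and 926 in CTRL and 924, 939.7 and 737 in FGF13cko. Those groups overlapped by a narrow margin, and the 95% interval of the log2 change ran from -0.50 to 0.18 (limma adjusted p = 0.482).

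Within SoxB1, the share of Sox3 was larger in FGF13cko than in CTRL, and that of Sox2 smaller. Per kb, Sox3 made up 25.4%, 25.7% and 16.4% of the class in CTRL 1, 2 and 3, and 39.5%, 38.0% and 36.0% in FGF13cko 1, 2 and 3. Sox2 made up 72.0%, 71.5% and 80.9% in CTRL and 57.4%, 58.5% and 60.8% in FGF13cko. The groups did not overlap for either gene. The summed SoxB1 level per kb was 7089 to 7935 in CTRL and 4739 to 6035 in FGF13cko. As a ratio within each library, which no scaling of libraries can alter, log2 of Sox3 to Sox2 was -1.50, -1.47 and -2.29 in CTRL and -0.53, -0.62 and -0.75 in FGF13cko. The difference of 1.12 was the largest of the 7 ratios computed (exact permutation test, 2-sided p = 0.1, adjusted p = 0.14). With 3 libraries against 3, a p of 0.1 is the smallest possible, so no ratio could pass the threshold. Without both replicate 3 libraries the Sox3 to Sox2 difference was 0.91.

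**Figure D2:**
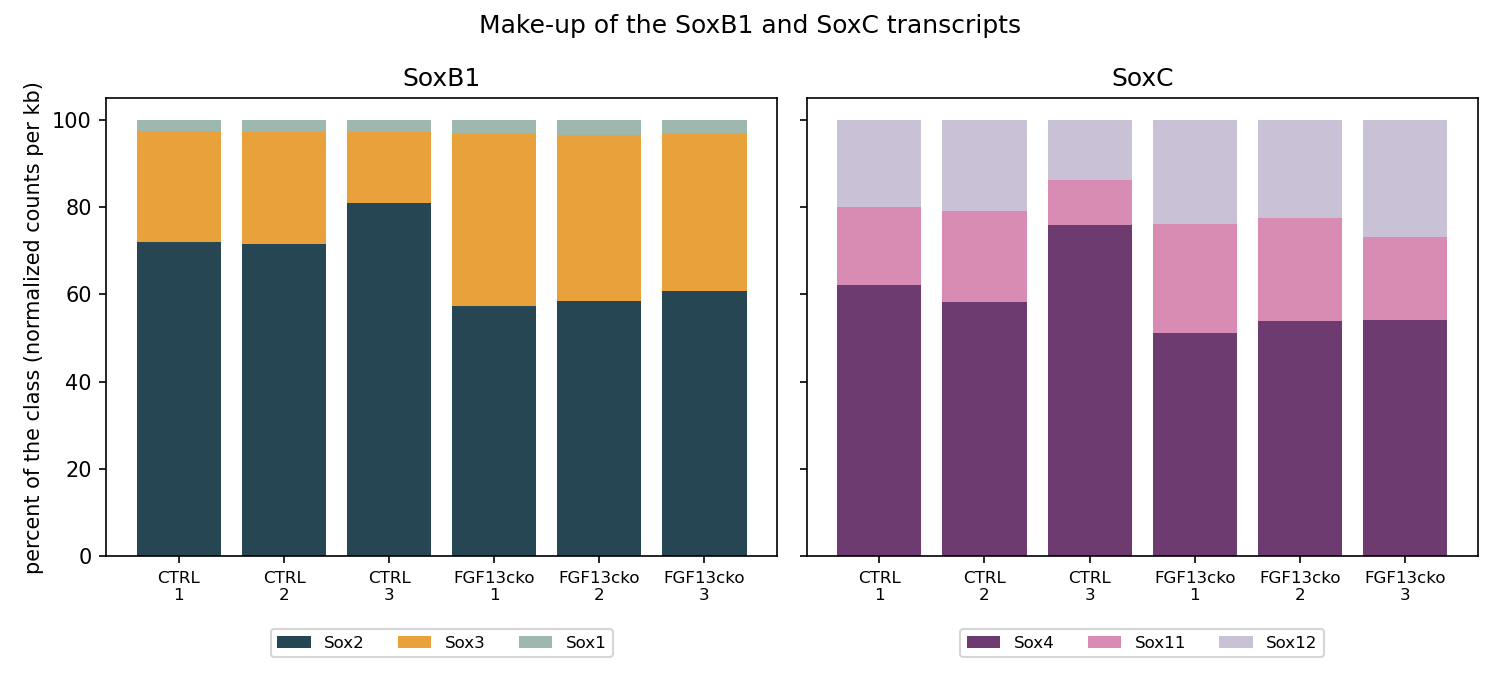
Share of each gene in the SoxB1 class (left) and the SoxC class (right), as percent of the class's normalized counts per kb, in each of the 6 libraries. The Sox3 band is 36.0% to 39.5% in FGF13cko and 16.4% to 25.7% in CTRL.

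Sox1 and Sox21 also stood higher relative to Sox2 in FGF13cko, though their own log2 changes were -0.16 and -0.29. Sox2 itself fell, so a gene that fell less stands higher in any ratio to it, as for Sox9 and Sox11 below. The share of all genes that would be apart in a ratio to Sox2 was not computed. The log2 ratio of Sox1 to Sox2 was -3.58, -3.42 and -3.67 in CTRL and -2.95, -2.85 and -3.00 in FGF13cko, a difference of 0.62. For Sox21 to Sox2 the ratio was -3.31, -3.51 and -3.43 in CTRL and -2.69, -2.89 and -3.18 in FGF13cko, a difference of 0.49. Neither pair of groups overlapped, and both had an exact permutation p of 0.1 (adjusted p = 0.14). Sox21 itself (chromosome 14, 118233232 to 118237030, minus strand) was at 1188, 926 and 1092 normalized counts in CTRL and 1099.6, 914 and 652 in FGF13cko. FGF13cko 3 was the low library, and the groups overlapped (log2 change -0.29, 95% interval -0.78 to 0.20, limma adjusted p = 0.378). The noncoding gene Gm4675 shares 713 exon bases with Sox21 on the opposite strand, and the kit keeps no strand information. Its normalized counts of 5.80 to 25.4 per library were small beside those of Sox21. How reads in the shared bases were counted is not given, so the Sox21 level per kb and its ratio to Sox2 may miss reads.

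Sox4 (ENSMUSG00000076431, chromosome 13, 28948919 to 28953713, minus strand), a SoxC factor of progenitors and young neurons, had the largest change of the 10. Normalized counts were 13932, 10662 and 17659.9 in CTRL 1, 2 and 3, and 6492, 7239 and 6939 in FGF13cko 1, 2 and 3. CTRL libraries spread widely, with CTRL 3 highest, and the FGF13cko libraries lay close together below them. The log2 change was -1.0 (SE 0.21, 95% interval -1.48 to -0.53, limma adjusted p = 0.0188). It was -0.82 without CTRL 3, where it passed as well, and the call was lost without CTRL 1 or any 1 FGF13cko library (limma adjusted p = 0.0645 to 0.0794). Of the exon bases of Sox4, 2616 are shared with the noncoding gene Gm26735 on the opposite strand, to which at most 2.01 normalized counts per library were assigned. How reads in the shared bases were counted is not given, so the Sox4 level per kb, its place beside Sox3 and the SoxC shares may miss reads.

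Sox11 (ENSMUSG00000063632, chromosome 12, 27334264 to 27342574, minus strand), the SoxC factor with the strongest link to neuron maturation, had 6928, 6629.8 and 4147 normalized counts in CTRL. It had 5452, 5476 and 4219 in FGF13cko. Both replicate 3 libraries were low, and the groups overlapped. The log2 change was -0.20, with a 95% interval of -0.72 to 0.33 (limma adjusted p = 0.585), so a fall of the size estimated for Sox4 lies outside that interval. Sox12 (chromosome 2, 152393611 to 152398063, minus strand), the least potent activator of the class, was at 4128, 3568 and 2964 in CTRL and 2814, 2799 and 3182 in FGF13cko. FGF13cko 3 lay above CTRL 3 (log2 change -0.27, 95% interval -0.64 to 0.11, limma adjusted p = 0.293).

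The change of Sox4 relative to Sox11 was also computed within libraries. The log2 ratio of Sox4 to Sox11 was 1.01, 0.69 and 2.09 in CTRL and 0.25, 0.40 and 0.72 in FGF13cko, where FGF13cko 3 lay just above CTRL 2 (difference -0.80, exact permutation p = 0.2, adjusted p = 0.233). Between libraries of the same number the ratio was lower in FGF13cko in all 3 pairs, by -0.76, -0.28 and -1.37 (exact sign-flip test, p = 0.25, the smallest that 3 pairs allow). Without CTRL 3 the difference was -0.39. Sox4 made up 58.2% to 76.0% of SoxC per kb in CTRL and 51.2% to 54.2% in FGF13cko. The summed SoxC level per kb was 3823 to 4848 in CTRL and 2642 to 2797 in FGF13cko, with no overlap. For Sox4 to Sox2 the log2 ratio was 0.25, 0.01 and 0.58 in CTRL and -0.13, 0.10 and 0.23 in FGF13cko (difference -0.22, exact permutation p = 0.4, adjusted p = 0.4), and the difference was -0.35 to -0.07 with 1 library left out. Those groups overlapped, which does not show that both genes changed alike. Sox11 to Sox2 ran from -1.51 to -0.67 in CTRL and from -0.49 to -0.31 in FGF13cko (difference 0.59, exact permutation p = 0.1, adjusted p = 0.14), and the difference was 0.32 without CTRL 3. In the ratio of summed SoxC to SoxB1 per kb the groups overlapped, at 0.532 to 0.684 in CTRL and 0.438 to 0.563 in FGF13cko.

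**Figure D3:**
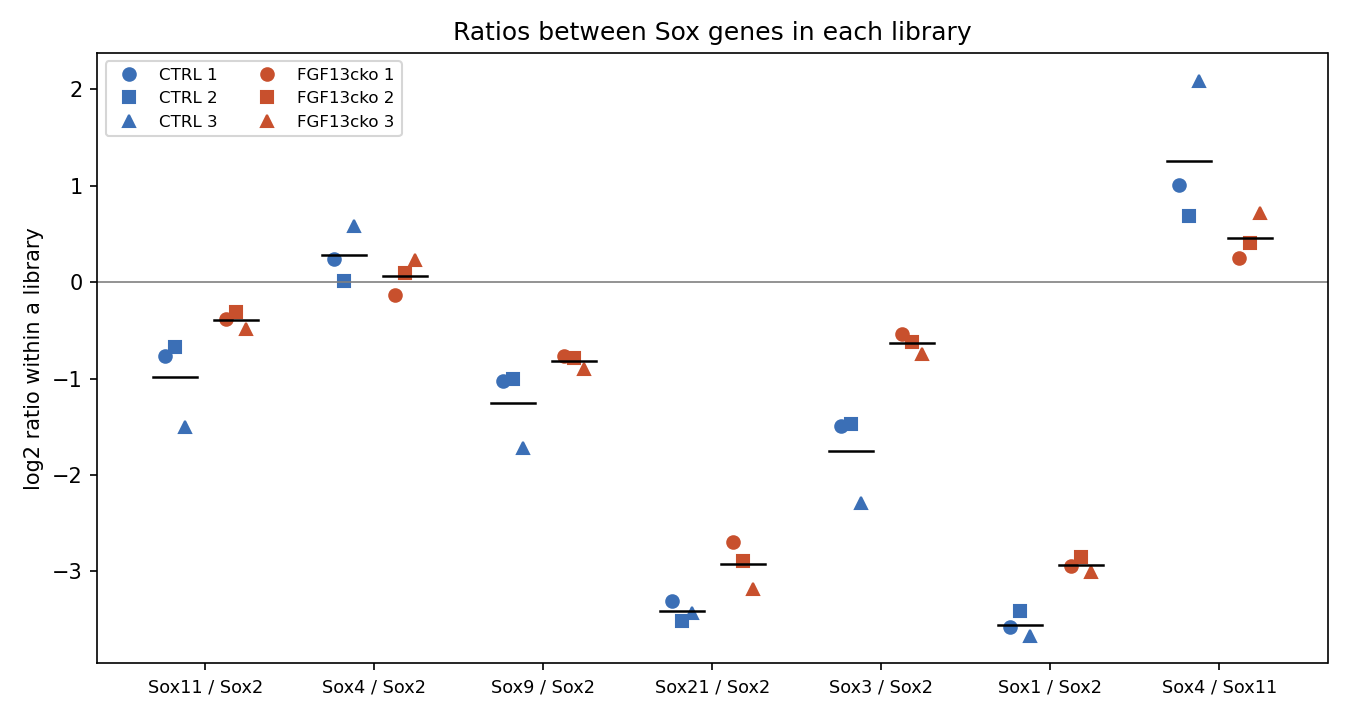
Log2 ratio of 2 Sox genes within each library (CTRL blue, FGF13cko orange, replicates 1, 2 and 3 as circles, squares and triangles, bars at group means). The groups are apart for the ratios of Sox11, Sox9, Sox21, Sox3 and Sox1 to Sox2, and overlap for Sox4 to Sox2 and Sox4 to Sox11.

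The upstream sequences of Sox2 and Sox4, the members with the largest falls, are shown beside that of Sox11, which did not pass although it is in the class of Sox4. They are bases 250 to 21 before the RefSeq transcript start (GRCm38.p6), read 5′ to 3′ on the gene's strand, at chr3:34649745-34649974 for Sox2, chr13:28953720-28953949 for Sox4 and chr12:27342739-27342968 for Sox11. Capitals mark the CCAAT box, the site of the general factor NF-Y, written CCAAT or, on the other strand, ATTGG.
Sox2: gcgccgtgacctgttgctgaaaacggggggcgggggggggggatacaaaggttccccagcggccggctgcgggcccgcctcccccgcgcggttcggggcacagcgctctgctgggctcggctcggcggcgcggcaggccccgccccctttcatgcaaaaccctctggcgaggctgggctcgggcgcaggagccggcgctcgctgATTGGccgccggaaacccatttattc
Sox4: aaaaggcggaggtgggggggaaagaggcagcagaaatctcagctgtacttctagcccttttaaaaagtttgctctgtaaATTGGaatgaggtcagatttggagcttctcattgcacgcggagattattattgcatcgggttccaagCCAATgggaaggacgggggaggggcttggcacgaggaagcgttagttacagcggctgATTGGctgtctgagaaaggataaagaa
Sox11: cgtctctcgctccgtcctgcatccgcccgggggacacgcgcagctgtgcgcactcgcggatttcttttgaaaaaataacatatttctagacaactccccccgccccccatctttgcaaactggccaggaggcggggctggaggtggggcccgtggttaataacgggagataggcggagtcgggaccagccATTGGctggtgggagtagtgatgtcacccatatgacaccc
All 3 windows hold the box, with 1 match in Sox2, 3 in Sox4 and 1 in Sox11, and the match nearest the start begins 46, 47 and 60 bases before it. Of 32817 promoter windows of this length, 32.2% hold at least 1 match. The letters ACAAT, 1 form of the core bound by Sox proteins, were searched on both strands (the motifs share the letters CAAT). They are in none of the 3 windows and in 26.4% of all. Other forms of the core were not searched over all windows. The form ACAAAG, for example, can be read in the Sox2 sequence above, so the windows cannot be called free of Sox sites. A match is a string of letters only, and the CCAAT box does not separate Sox2 and Sox4 from Sox11. The window of Sox5, which also fell, holds no CCAAT box and 1 match to ACAAT. That window (chr6:143947127-143947356) lies inside the annotated gene, far from its upstream end at 144781977. It belongs to an internal transcript start, so it cannot be set beside the 3 windows shown.

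Sox5 and Sox6, the SoxD genes, lay about equally far below CTRL. Sox5 (ENSMUSG00000041540, chromosome 6, 143828425 to 144781977, minus strand), which controls the timing of neuron and oligodendrocyte formation, had 1915, 1826 and 1576 normalized counts in CTRL. It had 1287, 1298 and 1118 in FGF13cko, below all CTRL values (log2 change -0.52, SE 0.14, limma adjusted p = 0.0463). Of the 6 fits that leave out 1 library, the one without CTRL 3 kept the call and the other five did not (limma adjusted p = 0.104 to 0.160). Without the filter on low values it was also lost (limma adjusted p = 0.0788). Sox6 (ENSMUSG00000051910, chromosome 7, 115470872 to 116038796, minus strand), its close relative, had 3776, 3649 and 3340.4 in CTRL and 2917, 2472 and 2027 in FGF13cko. The groups did not overlap, and the log2 change of -0.55 (SE 0.17) missed the threshold (limma adjusted p = 0.0617). It passed with the replicate number as a block (limma adjusted p = 0.0112), by edgeR (0.0463) and by DESeq2 (0.0392), and in the authors' deposited table its adjusted p was 0.0401. Sox5 was 31.3% to 36.3% of SoxD per kb in FGF13cko and 32.7% to 34.4% in CTRL, so the make-up of the class was the same within its spread. Gene counts do not show which of the many Sox5 and Sox6 isoforms were present. The antisense gene Sox5os1 shares 1330 exon bases with Sox5 and had at most 2.03 normalized counts per library. Reads in those bases may be missing from Sox5.

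Sox9 (ENSMUSG00000000567, chromosome 11, 112782224 to 112787760, plus strand), a factor of neural stem cells and astrocyte precursors, had 5753, 5269 and 3588 normalized counts in CTRL. In FGF13cko it had 4181, 3929 and 3175. CTRL 3 lay among the FGF13cko libraries, and the gene did not pass (log2 change -0.35, 95% interval -0.84 to 0.13, limma adjusted p = 0.286). Without CTRL 3 the log2 change was -0.56 and passed (limma adjusted p = 0.0234). Sox9 to Sox2 as a log2 ratio was -1.72 to -1.0 in CTRL and -0.90 to -0.77 in FGF13cko (difference 0.43, exact permutation p = 0.1, adjusted p = 0.14). That difference was 0.20 without CTRL 3.

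**Figure D4:**
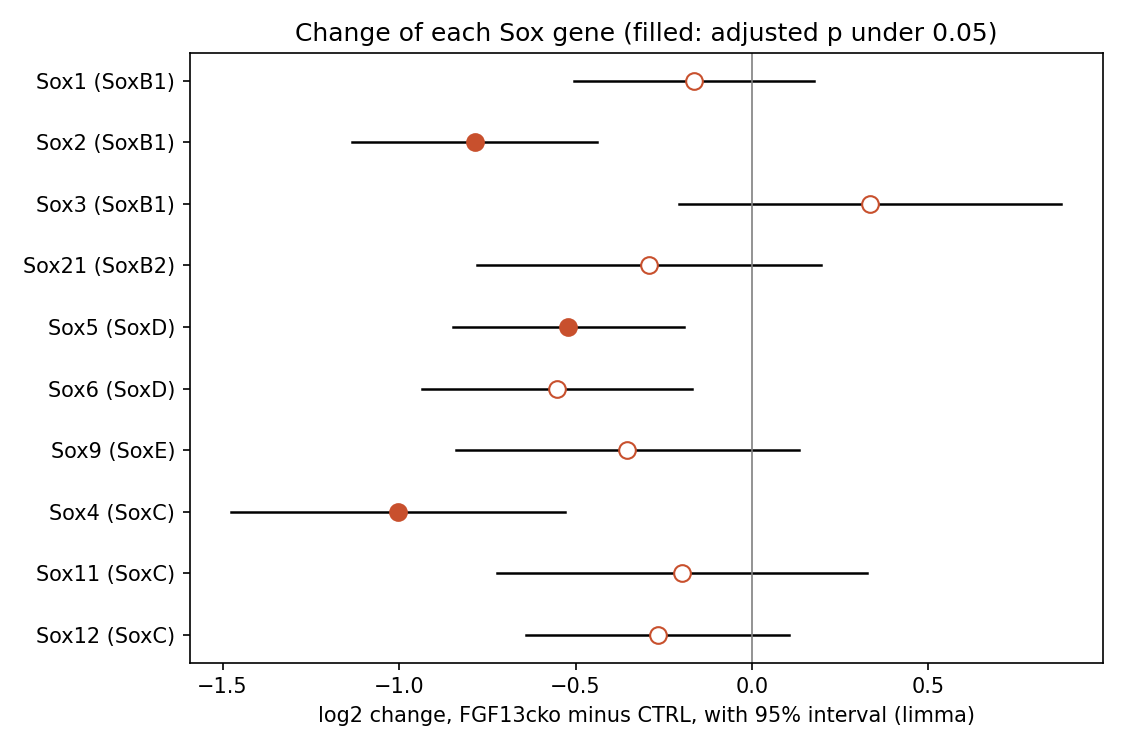
Log2 change of each Sox gene, FGF13cko minus CTRL, as a point with its 95% interval from limma, filled where the adjusted p was under 0.05. Sox2, Sox4 and Sox5 are filled, and Sox3 is the gene with a point above 0.

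The replicate 3 libraries weighed on these results. Relative to replicates 1 and 2 of its group, CTRL 3 differed by -0.73, -0.71 and -0.62 on the log2 scale in Sox3, Sox11 and Sox9 and by 0.53 in Sox4. FGF13cko 3 differed by -0.40, -0.37 and -0.35 in Sox3, Sox11 and Sox9 and by 0.02 in Sox4. Without both replicate 3 libraries 7 members were called lower by limma, where 18.4% of all genes tested were called lower and 18.9% higher. These were Sox2, Sox4, Sox5, Sox6, Sox9, Sox11 and Sox12, with log2 changes of -0.68, -0.83, -0.53, -0.47, -0.44, -0.31 and -0.45. The count was 6 without CTRL 3, 2 without CTRL 2 and 1 without FGF13cko 1. In those fits 2145, 732 and 633 of all genes tested were called lower, against 1193 with all 6 libraries. No member was called lower without CTRL 1, FGF13cko 2 or FGF13cko 3. In these fits 732, 469 and 923 genes passed in either direction, against 2465 with all 6 libraries.

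**Figure D5:**
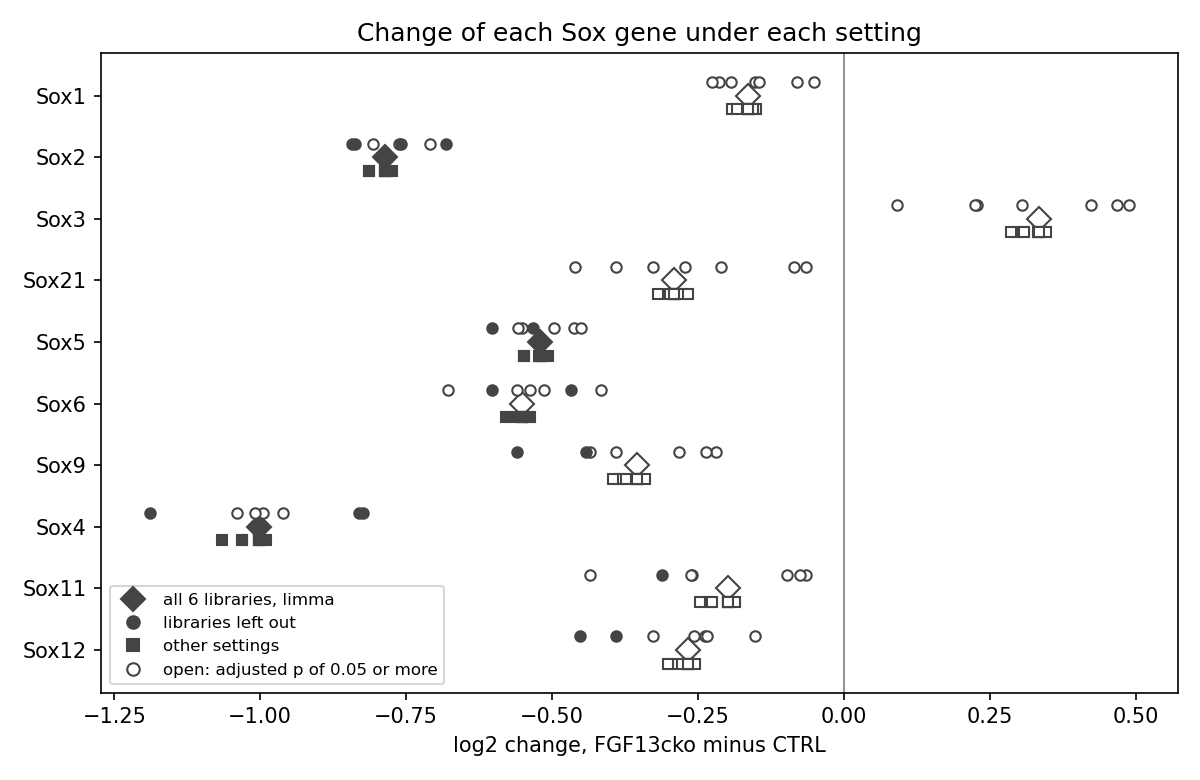
Log2 change of each Sox gene with all 6 libraries (diamonds), with libraries left out (circles) and under other settings (squares), filled where the adjusted p was under 0.05. Sox2 stays between -0.84 and -0.68 and Sox4 between -1.19 and -0.82, and Sox3 is the gene whose points all lie above 0.

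Of the other Sox family genes, 10 were in the table and 5 were tested. The SoxE relatives of Sox9 fell. Sox8, a glial factor, had 6647, 5976 and 8404 normalized counts in CTRL and 3607, 3492 and 2249.8 in FGF13cko (log2 change -1.19, limma adjusted p = 0.0143). Sox10, which drives the oligodendrocyte lineage, had 2606, 2026 and 4971 in CTRL and 643, 758 and 1181 in FGF13cko (log2 change -1.84, limma adjusted p = 0.0148). The calls were lost without FGF13cko 2 (limma adjusted p = 0.0567 and 0.0731), and that of Sox8 also without CTRL 1 (0.0534). Per kb, Sox8 at 2248 ± 402 in CTRL stood above Sox9, so it was the leading SoxE transcript there, whereas in FGF13cko Sox8 was at 999 ± 241 and Sox9 at 909.7 ± 127. Sox13, Sox7 and Sox30 did not pass (limma adjusted p = 0.33, 0.129 and 0.4). Sox17 had 0 reads in CTRL and 9 in FGF13cko, Sox15 had 7 and 10, Sox18 had 11 and 8, and Sox14 and Sry had 0 in all 6 libraries, which allows up to 3 reads per library.

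SoxB1 proteins bind many enhancers together with POU-domain factors. Of 6 tested POU genes 2 fell, where 7.08% of all genes tested did: Pou3f2, the best known neural partner of Sox2, from 1553 ± 234 to 773 ± 206 normalized counts (log2 change -1.03, limma adjusted p = 0.0247), and Pou2f1, from 894 ± 43.7 to 634 ± 53.3 (-0.50, limma adjusted p = 0.0481). The median over the 6 was -0.44. Pou3f1 was at 790.3, 1054 and 102 in CTRL and 2175, 1454 and 1114 in FGF13cko and did not pass (limma adjusted p = 0.16; 0.0131 with the replicate block). With that block 1 POU gene rose and 4 fell, where 16.2% and 13.9% of all genes did, the added ones being Pou3f4 and Pou6f1 (limma adjusted p = 0.00802 and 0.0468). Both calls of the unblocked fit were lost without CTRL 1, FGF13cko 2 or FGF13cko 3, and that of Pou2f1 also without CTRL 2 or FGF13cko 1.

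Among 11 genes reported as Sox2 targets in neural progenitors, 1 rose and 2 fell, with a median log2 change of -0.26, where 7.55% of all genes tested rose and 7.08% fell. Hes5, a Notch effector of undifferentiated cells, was at 357 ± 205 normalized counts in CTRL and fell to 56.6 ± 8.74 (log2 change -2.49, limma adjusted p = 0.00794). Chd7, a chromatin remodeller that partners Sox2, fell from 4979 ± 245 to 3257 ± 474 (-0.62, limma adjusted p = 0.034), a call lost in 5 of the 6 fits without 1 library (0.0530 to 0.127), CTRL 3 being the exception, and without the filter on low values (0.059). The Notch ligand Jag1 rose from 1234 ± 419.7 to 3764 ± 84.2 (1.67, limma adjusted p = 0.00738). Nes, whose neural enhancer is a classic site of Sox2 and POU factors, did not pass. It was at 16604, 18888 and 4155 in CTRL and 33400.1, 30262 and 18858 in FGF13cko (limma adjusted p = 0.149; 0.00609 with the replicate block). With the block 3 of the 11 rose and 4 fell, where 16.2% and 13.9% of all genes did. Shh was then also called higher and Nr2e1 and Mycn lower (limma adjusted p = 0.0345, 0.0417 and 0.0186). Shh, counted among the 3 that rose, had means of 3.70 normalized counts in CTRL and 17.2 in FGF13cko. It passed the filter on low values only through FGF13cko, so the direction of its call carries no support.

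Of 8 genes reported as Sox9 targets, 3 fell, with a median of -0.76, where 7.08% of all genes tested fell. Fgfr3, a growth factor receptor of the glial lineage, was at 6464 ± 989 normalized counts in CTRL and fell to 2133 ± 264 (log2 change -1.59, limma adjusted p = 0.00264), and Col2a1, a collagen gene under Sox9 control in cartilage, from 337 ± 165 to 39.1 ± 9.85 (-3.00, limma adjusted p = 0.00313). Both passed in all 6 fits that leave out 1 library. Mmd2 fell from 7008 ± 3021 to 2942 ± 853 (-1.21, limma adjusted p = 0.0426), but not without CTRL 1 or any 1 FGF13cko library (0.0651 to 0.138). Nfia, the best known of them in glia, was at 3174 ± 513 and 2819 ± 273 (limma adjusted p = 0.536).

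Of 4 genes reported as SoxC targets, 2 rose, with a median of 0.76, where 7.55% of all genes tested rose. The tubulin gene Tubb3 rose from 1961 ± 463 to 4751 ± 1898 normalized counts (log2 change 1.22, limma adjusted p = 0.0361), and doublecortin (Dcx) from 1644 ± 158 to 4092 ± 1453 (1.26, limma adjusted p = 0.0169). Both calls were lost without CTRL 1 or FGF13cko 2, and that of Tubb3 also without FGF13cko 3. Map2 (13819.5 ± 2082 and 16938 ± 1472) and Tead2 (2679.9 ± 416 and 1771 ± 372) did not pass (limma adjusted p = 0.295 and 0.0739; Tead2 0.00577 with the replicate block).

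Markers of other cell types differed between the groups as well, and their part in the Sox results was not tested. Of 10 young neuron markers 6 rose, and their summed level was 24224 to 33116 normalized counts in CTRL and 42129 to 57825 in FGF13cko, where 7.55% of all genes tested rose. The count was 8 with the replicate block, where 16.2% of all genes rose. It was 4 without CTRL 2, 2 without FGF13cko 3 and 0 without CTRL 1 or FGF13cko 2. In those fits 1571, 923, 732 and 469 of all genes passed in either direction, against 2465 with all 6 libraries. In the oligodendrocyte list 2 of 10 fell, Sox10 and Gpr17, where 7.08% of all genes did, while the sum was 56293 to 77197 in CTRL and 61503 to 77559 in FGF13cko. With the block 5 of 10 fell, where 13.9% of all genes did. Cspg4, Mbp and Cnp were the added ones (limma adjusted p = 0.00214, 0.00498 and 0.0262), and without FGF13cko 2 the count was 0. In the progenitor list Pax6, Hes5 and Prom1 fell, 3 of 8, while Nes, Vim, Hopx and Fabp7 had log2 changes of 1.29, 0.81, 0.98 and 0.56 and did not pass. Nes, Vim and Hopx rose with the block (limma adjusted p = 0.00609, 0.0188 and 0.000755), where 16.2% of all genes did. The count that fell was 1 without CTRL 1 or FGF13cko 2 and 2 without FGF13cko 1 or FGF13cko 3. All genes called lower then numbered 341, 276, 633 and 492, against 1193 with all 6 libraries. Of 7 tested astrocyte markers 1 rose, and the sum overlapped, at 31729 to 63259.9 and 35986 to 63158. Microglia, endothelial, and mural and fibroblast sums were low in CTRL, at 44.3 to 68.8, 34.4 to 54.9 and 249 to 408. They were higher in FGF13cko, at 96.6 to 187, 100.5 to 194 and 812 to 2391, with 0 of 3, 2 of 4 and 2 of 4 tested members called higher. Cdh5 and Tek, the endothelial genes called, had CTRL means of 1.69 and 6.08 and FGF13cko means of 26.5 and 25.9 normalized counts. Both reached the filter's mean of 10 only through FGF13cko, so the direction of these calls carries no support. Rgs5 set most of the mural and fibroblast sum, at 109 to 310 in CTRL and 659 to 2267 in FGF13cko. Col1a1 of that list went the other way (log2 change -1.11, limma adjusted p = 0.129, and 0.0185 with the replicate block). Endothelial Pecam1 had a log2 change of 0.14 (limma adjusted p = 0.815). With 1 library left out the number called higher ranged from 0 to 3 for astrocyte, 0 to 1 for microglia and 0 to 2 for both other lists. Without CTRL 3, 1 mural and fibroblast gene was also called lower. In the fits without 1 library 469 to 4373 of all genes passed in either direction. Among the defining markers, Lum had 0 reads in CTRL, and no marker had 0 in all 6 libraries.

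The genes whose levels ran most like a member's were sought among 11365 genes with a mean of at least 100, by Pearson r of log2 values over the 6 libraries, as a description that rests on both the genotypes and the replicate 3 libraries. For Sox2 they were Uvssa, Tial1 and Rexo5 (r = 0.998, 0.997 and 0.997), a DNA repair factor, an RNA-binding protein and an RNA exonuclease. For Sox9 they were Cep85, Ext2 and Fam53a, each with an r of at least 0.998. For Sox11 they were Gfpt2, Dip2b and Cpsf1 (0.998, 0.998 and 0.997), all low in both replicate 3 libraries as Sox11 was. The likeness was weaker for Sox21, with Mcm9, Cyren and Zbtb26 at 0.975, 0.968 and 0.966.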

How the data were processed

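Values came from 1 deposited table of 54532 genes and 6 libraries. The deposited values are a signal on the count scale: the authors divided gene counts by a size factor per library. The same deposited table holds the authors' log2 fold change, its standard error and Wald statistic as scores, and p-values. The submitters' processing notes name STAR, DESeq2 and the mm10 build; their versions, the read counter and the annotation are not given here. Per the labels' protocols, the kit was NEBNext Ultra RNA. Dividing by each library's step gave whole reads for 100% of values within 0.01.

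The test was limma 3.58.1 (R 4.3.3) with a mean-variance trend on log2(value + 1), which understates changes of low genes. It covered 16852 genes with a mean of at least 10, with Benjamini-Hochberg adjustment over these and a threshold of 0.05, 2-sided. edgeR 4.0.16 (quasi-likelihood) and DESeq2 1.42.0 ran on recovered reads as alternatives and called 2515 and 3444 genes. All 3 were tested on simulated data. Ratios of 2 members used an exact permutation test over 20 assignments and, as an alternative, a sign-flip test over 3 pairs. Exon lengths and coordinates (1-based) came from GENCODE M21 (GRCm38), and upstream sequences from RefSeq (GRCm38.p6), where 8 of 10 members matched. Figures used matplotlib 3.10.9.

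The members and lists were chosen with earlier results of these data known. Named genes are the members, other Sox genes, list members past the test and overlapping genes, with 3 like genes for each of 4 members; other genes were named after their values were seen. Same-numbered libraries deviated together (residual correlation 0.36, 0.20 and 0.54 for replicates 1, 2 and 3). The labels leave the meaning of the numbers unstated, and CTRL 2 correlated more with FGF13cko 1 (0.33), so the block rests on the data alone. Libraries of 1 group were not duplicates (chi-square per gene of 7.69 or more). Reads are not independent molecules, so limits on counts of 0 cover counting error at 95% only.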

Additional observations from a re-analysis of the deposited data

How the results depend on the processing

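All 10 Sox genes kept their direction under the 16 alternatives run for each (pseudocounts, filters, scalings, edgeR, DESeq2, the replicate block, libraries left out), and all 7 ratios did under their 9, of which the pairing of libraries by number was added after seeing the data (exact sign-flip p = 0.25 for 6 ratios and 0.5 for Sox4 to Sox2). With 1 library left out the log2 change ranged from -0.84 to -0.71 for Sox2, -1.19 to -0.82 for Sox4, -0.60 to -0.45 for Sox5, -0.68 to -0.42 for Sox6, -0.56 to -0.22 for Sox9, -0.39 to -0.15 for Sox12, 0.09 to 0.49 for Sox3, -0.46 to -0.08 for Sox21, -0.43 to -0.06 for Sox11 and -0.23 to -0.05 for Sox1. The members that fell then numbered 0 to 6, all genes past the test 469 to 4373, and those lower 276 to 2145. Sox5 missed the threshold without the filter on low values (-0.52, unchanged in size, with more genes tested). Sox6 passed with scaling by total reads (-0.54), TMM scaling (-0.58), edgeR (-0.57), DESeq2 (-0.54), the replicate block (-0.55), without CTRL 3 (-0.60) and without both replicate 3 libraries (-0.47), and the cause was not tested. Without those libraries Sox9 (-0.44), Sox11 (-0.31) and Sox12 (-0.45) passed too, 7 members fell, and 6145 genes passed, 3034 of them lower. The replicate block raised these counts to 5064 and 2341 and changed the call of no other member than Sox6. Sox2ot, at -0.12 with all libraries and not called, ranged from -0.30 to 0.066 with 1 left out and was above 0 without CTRL 3. With all 6 libraries the 95% intervals of Sox3, Sox9, Sox11, Sox12, Sox21 and Sox1 include 0, which does not show that these genes were unchanged.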
